A study of Caenorhabditis elegans with 12 samples.

Results

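The genes described here are the glutathione S-transferases of Caenorhabditis elegans together with gcs-1, skn-1 and wdr-23. They were chosen by name: every gene whose symbol begins with gst-, gstk- or gsto- followed by a digit, plus those 3 genes, provided that it had at least 60 counts over the 12 libraries. Of 52 genes that fit by name, 40 reached this count, out of 46904 genes in the deposited table, of which 19509 had a count in any library. The 40 are 33 gst genes, 2 gstk genes, 2 gsto genes, gcs-1, skn-1 and wdr-23. At the count threshold, gst-19 with 64 counts and gst-34 with 68 stood just inside, and gst-11 with 55 and gst-40 with 46 just outside. The other 10 genes left out, gsto-2, gst-2, gst-8, gst-17, gst-18, gst-23, gst-25, gst-31, gst-32 and gst-37, had between 0 and 41 counts.

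Whole-animal RNA was sequenced from 4 groups, each with 3 libraries labelled as biological replicates, so the p-values measure the spread between those libraries. The groups were pmk-1(km25) mutants in 100 mM NaCl, pmk-1(km25) mutants in 100 mM KCl, wild-type N2 animals in 100 mM NaCl and wild-type N2 animals in 100 mM KCl. All were synchronized day 1 adults, pooled at about 1000 animals per sample and kept for 4 h in the salt solution with no bacterial food, a withdrawal that the KCl animals shared. The series calls the NaCl arm low potassium, but sodium also differed between the solutions. The mutant is represented by the single allele km25, which every mutant animal carries in all tissues.

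Glutathione is a small thiol peptide that neutralizes reactive compounds and keeps proteins in their reduced state. Glutamate-cysteine ligase, whose catalytic subunit is encoded by gcs-1, carries out the rate-limiting step of its synthesis, and glutathione S-transferases join glutathione to electrophilic molecules so that these can be exported from the cell. In C. elegans many of these genes are targets of SKN-1, the relative of mammalian Nrf transcription factors, which acts in the intestine and in the ASI neurons. WDR-23 holds SKN-1 protein down by handing it to a ubiquitin ligase, and the p38 kinase PMK-1 phosphorylates SKN-1 and promotes its entry into intestinal nuclei after oxidative stress. SKN-1 is thus regulated largely at the protein level, which RNA counts do not show.

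The libraries held between 8931797 and 11445709 counts, and 13353 genes had enough counts to be tested, among them 36 of the 40 members. The gene pmk-1 itself was still counted in the mutant, at 180 to 242 counts per library against 217 to 441 in wild type. The gene-level count includes whatever part of the gene lies outside the deletion. Markers of sperm and embryos differed between the strains, and so did some markers of other tissues. A marker score, the mean over a marker list of log2 CPM centred on each marker's mean over the 12 libraries, ran for 16 sperm markers from 1.53 to 3.59 in pmk-1 libraries against -3.32 to -0.71 in wild type. Their summed level was 439 to 1769 CPM in pmk-1 and 4.31 to 75.0 CPM in wild type, where spe-38 was at 0 in all KCl libraries. For 9 markers of later embryos the score ran from -2.16 to -0.11 in pmk-1 against 0.88 to 1.75 in wild type (summed level 2.28 to 27.1 against 48.4 to 114 CPM). In whole animals, fewer cells of a type and less RNA per cell cannot be told apart, which applies to every value below. Intestinal markers, which bear on the tissue where SKN-1 targets are best known, were detected in every group (6 matched, none at 0, score 0.05 to 1.05 in pmk-1 NaCl, -0.24 to 0.58 in pmk-1 KCl, -0.41 to -0.13 in wild-type NaCl and -0.42 to -0.07 in wild-type KCl). The median log2 fold change of these markers was 0.65 for pmk-1 over wild type in NaCl and 0.31 in KCl. For NaCl over KCl it was 0.30 in pmk-1 and 0.10 in wild type. The part of this shift in the values below was not tested. Ribosomal RNA took 3.52 to 5.0% of counts in pmk-1 NaCl and 0.605 to 3.26% in the other groups.

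Which members of this large family do fasting adults express? Levels between genes are compared as TMM-scaled CPM (each gene's share of a library's counts, corrected for library composition) per kb of exon, averaged over the 12 libraries. A pair of genes stood far above the other transferases: gst-1 at 256.4 and gst-7 at 220.6 CPM per kb. The transcription factor gene skn-1 followed at 66.8, gcs-1 at 48.8, gst-27 at 38.4, gst-36 at 33.8 and wdr-23 at 29.7 CPM per kb. Then came gst-13 at 23.9, gst-4, the gene most used as a fluorescent reporter of SKN-1 activity, at 19.1, gst-10 at 18.8 and gst-5 at 18.7 CPM per kb, an order in which the last 3 did not differ beyond their spread over libraries. The remaining 29 members lay between 0.79 (gst-21) and 16.5 (gstk-1) CPM per kb.

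**Figure D1:**
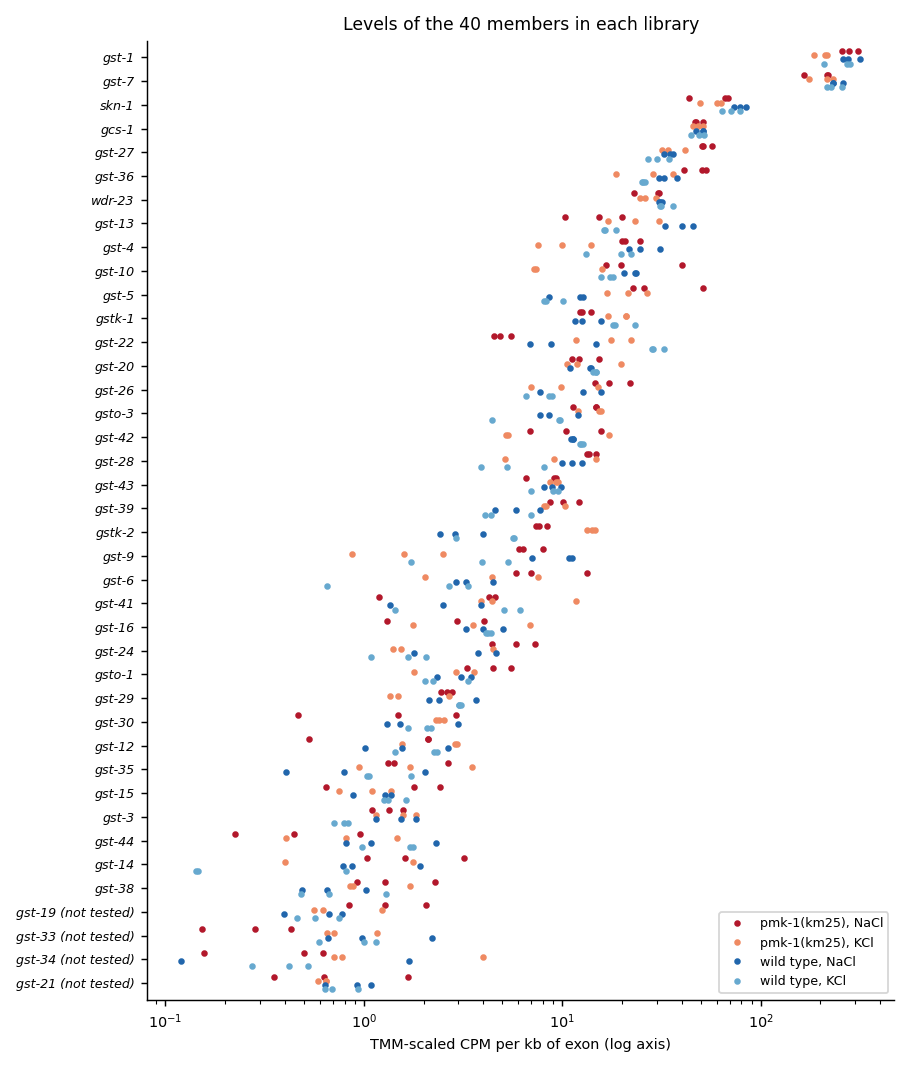
TMM-scaled CPM per kb of exon (log axis) of the 40 members in each of the 12 libraries, 1 point per library, coloured by group and ordered by the mean. A library at 0 has no point on the log axis (gst-14 in pmk-1 KCl replicate 3 and gst-34 in wild-type NaCl replicate 2); gst-1 and gst-7 stand apart at the top, with means of 256.4 and 220.6.

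Of the 40 members, 22 lie on chromosome II, 7 on V, 4 on IV, 3 on III and 2 each on I and X. Most of those on II belong to runs of neighbouring transferase genes, defined as genes with at most 1 other coding gene between them. The shortest on this chromosome holds gst-6, gst-7 and gst-8. Within it gst-7 stood at 220.6 CPM per kb, gst-6 at 4.79, and gst-8 did not reach 60 counts. A run of 9 holds gst-20, gst-24, gst-15, gst-14, gst-12, gst-16, gst-19, gst-17 and gst-18, in which gst-20 was highest at 13.6 CPM per kb and gst-17 had no count. Another run of 9 holds gst-26, gst-27, gst-28, gst-29, gst-39, gst-31, gst-32, gst-34 and gst-35, led by gst-27. On IV, gst-3 at 1.28 and gst-4 at 19.1 CPM per kb flank gst-2, which had 28 counts. Neighbours in a run thus differed in level by more than 10-fold, and no 2 members had equal counts in 10 or more libraries, the pattern of reads shared between identical copies. Similar but unequal genes that share reads need not have equal counts, so such sharing was not tested. Exons of some members overlap another gene, so their counts could include its reads: gst-4 with dhs-12 on the same strand over 65 bases, and, on the opposite strand, gst-36 with scav-5 over 93, gsto-1 with kle-2 over 52, gstk-2 with elo-3 over 44, skn-1 with csn-5 over 41, gst-5 with nos-1 and gst-22 with F21H7.12 over 12 each and gst-44 with srd-63 over 9.

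Added up per library, the 37 transferases came to 634 ± 22.9 CPM in pmk-1 NaCl, 536 ± 26.1 CPM in pmk-1 KCl, 628 ± 26.6 CPM in wild-type NaCl and 570.3 ± 52.1 CPM in wild-type KCl (SD, n = 3 each). The summed level was higher in NaCl than in KCl in each genotype by these means. In the mutant the NaCl range of 609.8 to 655.5 CPM lay above the KCl range of 506.9 to 556.9 CPM. In wild type the ranges, 597.6 to 644.8 CPM in NaCl and 522.6 to 625.9 CPM in KCl, overlapped. Counted per kb, gst-1 and gst-7 made up 49.8 to 61.2% of the family in pmk-1 NaCl, 50.4 to 64.4% in pmk-1 KCl, 62.2 to 64.2% in wild-type NaCl and 62.7 to 65.6% in wild-type KCl.

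The entry enzyme of glutathione synthesis differed little between the groups. The gene gcs-1 was read at 109, 119.5 and 110.1 CPM in pmk-1 NaCl, 113, 107 and 119.8 CPM in pmk-1 KCl, 119.6, 110.4 and 120.0 CPM in wild-type NaCl and 121, 103 and 114 CPM in wild-type KCl. All 4 groups overlapped. For NaCl against KCl its log2 fold change was -0.00 ± 0.09 in pmk-1 (SE; 95% interval -0.21 to 0.20) and 0.05 ± 0.09 in wild type (-0.16 to 0.26). Between the genotypes, pmk-1 over wild type, it was -0.05 ± 0.09 in NaCl and 0.01 ± 0.09 in KCl. These are the smallest errors among the members, and with edgeR's quasi-likelihood test and Benjamini-Hochberg adjustment over 13353 genes the adjusted p was 0.72 or more in each of the 4 comparisons. The gene gss-1, which encodes glutathione synthetase, the next enzyme, also passed in none of them.

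The regulators skn-1 and wdr-23 likewise did not pass in any comparison. For skn-1 the levels were 129, 196 and 203 CPM in pmk-1 NaCl against 218, 234 and 249 CPM in wild-type NaCl, and 147, 187 and 178 CPM in pmk-1 KCl against 189, 209 and 232 CPM in wild-type KCl. Every mutant library lay below every wild-type library of the same salt, and the first replicate was the lowest of each group. The log2 fold change of pmk-1 over wild type was -0.41 ± 0.17 in NaCl (edgeR adjusted p = 0.0858) and -0.30 ± 0.17 in KCl. In NaCl it passed with the replicate number as a block (-0.43, edgeR adjusted p = 0.0115). It also passed with all 4 first replicates left out, and without pmk-1 NaCl replicate 3 alone (-0.55, edgeR adjusted p = 0.0390). With another single library left out the adjusted p reached 0.226. For wdr-23 the levels were 68.2, 91.8 and 90.2 CPM in pmk-1 NaCl, 73.7, 88.4 and 78.1 CPM in pmk-1 KCl, 94.5, 93.2 and 91.7 CPM in wild-type NaCl and 93.9, 93.1 and 108 CPM in wild-type KCl. The lowest of the 12 was the first replicate of pmk-1 NaCl. In KCl, wdr-23 stood at -0.29 ± 0.13 for pmk-1 over wild type (edgeR adjusted p = 0.112, and from 0.0413 without pmk-1 NaCl replicate 1 to 0.338 with another library left out). For NaCl against KCl the log2 values of skn-1 were 0.05 ± 0.17 in pmk-1 and 0.15 ± 0.16 in wild type, and those of wdr-23 were 0.06 ± 0.13 and -0.08 ± 0.13.

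Which transferases differed between NaCl and KCl? In the mutant, 1 of the 36 tested members rose and 1 fell, 5.56% of them, beside 2.71% of all genes tested (2.33% up and 0.382% down). In wild type no member passed in edgeR, where 0.187% of all genes did (0.172% up and 0.015% down). There 4 members higher and 2 lower in NaCl had an unadjusted p under 0.05 (16.7%, beside 4.27% of all genes), and DESeq2 called gst-13 up and gst-22 down (5.0%, beside 0.915%). The median log2 change over the tested members was 0.13 in pmk-1 (all genes -0.01) and 0.11 in wild type (all genes -0.01). The sign of the salt effect was the same in the 2 genotypes, which share no library, for 25 of 36 members (69.4%, beside 66.3% of all genes tested), 15 of them higher and 10 lower in NaCl.

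The change that passed with the smallest p was the fall of gst-22 in NaCl. It was read at 4.00, 3.51 and 3.28 CPM in pmk-1 NaCl against 8.49, 16.1 and 12.7 CPM in pmk-1 KCl. Wild-type animals had 10.7, 6.34 and 5.004 CPM in NaCl against 23.5, 20.5 and 20.6 CPM in KCl. In each genotype the NaCl libraries all lay below the KCl libraries. The log2 fold change was -1.79 ± 0.32 in pmk-1 (edgeR adjusted p = 0.0114) and -1.55 ± 0.30 in wild type (edgeR adjusted p = 0.0947), and with the replicate number as a block both passed (-1.58 in wild type, adjusted p = 0.0272). Set against each other, the salt effects differed by -0.23 ± 0.43 (pmk-1 minus wild type), which did not pass. The call in pmk-1 was lost without pmk-1 NaCl replicate 2 (edgeR adjusted p = 0.0507) and with the 6 mutant libraries fitted alone (-1.82, adjusted p = 0.114), and the wild-type value passed without pmk-1 KCl replicate 1 (0.0373) or pmk-1 NaCl replicate 1 (0.0491) and reached an adjusted p of 0.488 without another library.

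The member that rose in NaCl was gst-9, a gene of low level. In pmk-1 it had 5.71, 4.301 and 4.49 CPM in NaCl against 0.62, 1.79 and 1.14 CPM in KCl, and in wild type 5.01, 8.01 and 7.73 CPM in NaCl against 1.23, 3.81 and 2.81 CPM in KCl. The salts did not overlap in either genotype. Its log2 fold change was 2.01 ± 0.47 in pmk-1 (edgeR adjusted p = 0.0451) and 1.396 ± 0.44 in wild type (edgeR adjusted p = 0.52). The call in pmk-1 was at the edge of the threshold. It passed with the replicate block (2.11, adjusted p = 0.0107), in DESeq2 (1.99) and without the first replicates (1.51, 0.0244). When each of the 12 libraries was left out in turn it passed in edgeR only without wild-type KCl replicate 1, with adjusted p from 0.0312 to 0.194, and it was lost with RLE size factors (1.99, adjusted p = 0.0535) and in the mutant libraries alone (1.98, adjusted p = 0.191).

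Beyond these 2 genes, the mutant showed several other transferases that were higher in NaCl without passing in the edgeR fit over all libraries. DESeq2 called gst-1, gst-4, gst-10, gst-27 and gst-36 higher in this comparison. With gst-9 higher and gst-22 lower, its calls came to 17.5% of the members, beside 4.76% of all genes. In edgeR 8 members higher and 4 lower in NaCl had an unadjusted p under 0.05 (33.3%, beside 13.4% of all genes). The SKN-1 reporter gene gst-4 was read at 15.2, 18.1 and 14.7 CPM in pmk-1 NaCl against 7.25, 10.2 and 5.49 CPM in pmk-1 KCl, and at 15.8, 18.1 and 22.8 CPM in wild-type NaCl against 9.64, 16.2 and 14.4 CPM in wild-type KCl. Its groups were separate in the mutant and overlapped in wild type. The log2 fold change was 1.06 ± 0.28 in pmk-1 (edgeR adjusted p = 0.0735; 1.07 with the replicate block, adjusted p = 0.0244) and 0.49 ± 0.27 in wild type. The difference between these salt effects, 0.56 ± 0.38, did not pass.

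The gene gst-10, whose enzyme conjugates a toxic product of lipid peroxidation, had 29.0, 14.2 and 11.9 CPM in pmk-1 NaCl against 11.39, 5.17 and 5.28 CPM in pmk-1 KCl. In wild type it had 14.7, 16.7 and 16.9 CPM in NaCl against 11.3, 12.5 and 13.03 CPM in KCl. The first replicate was the highest of its group in the mutant in each salt, and the first replicates also had the highest sperm score of each group, whose part in this was not tested. On the log2 scale the change in pmk-1 was 1.33 ± 0.37 (edgeR adjusted p = 0.0964; 0.0323 with the replicate block). Without pmk-1 NaCl replicate 1 it was 0.78 (edgeR adjusted p = 0.333), without pmk-1 KCl replicate 1 it was 1.81 (0.0201), and over all libraries left out in turn the adjusted p reached 0.37.

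For gst-36 the levels were 39.95, 38.5 and 31.2 CPM in pmk-1 NaCl against 27.2, 21.7 and 14.1 CPM in pmk-1 KCl, and 28.6, 24.5 and 23.3 CPM in wild-type NaCl against 19.2, 19.7 and 19.4 CPM in wild-type KCl. NaCl libraries were above KCl libraries in each genotype. On the log2 scale this came to 0.80 ± 0.22 in pmk-1 (edgeR adjusted p = 0.0859; 0.82 and 0.0207 with the replicate block) and 0.39 ± 0.22 in wild type. With 1 library left out the pmk-1 value ran from 0.54 without pmk-1 KCl replicate 3 (edgeR adjusted p = 0.284) to 1.03 without pmk-1 KCl replicate 1 (0.0238). For gst-27 the pmk-1 value was 0.57 ± 0.15 (edgeR adjusted p = 0.0775) and the wild-type value 0.18 ± 0.15. The most abundant transferase, gst-1, had 192, 233 and 209 CPM in pmk-1 NaCl against 140, 158.5 and 162 CPM in pmk-1 KCl, a log2 fold change of 0.46 ± 0.13 (edgeR adjusted p = 0.116), and in wild type 0.16 ± 0.13. The next in level, gst-7, was at -0.06 ± 0.14 in pmk-1 and 0.05 ± 0.14 in wild type.

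The kappa-class genes, whose mammalian relatives encode mitochondrial and peroxisomal transferases, were lower in NaCl without passing. For gstk-1 the levels were 9.82, 10.98 and 9.59 CPM in pmk-1 NaCl against 16.5, 16.4 and 13.3 CPM in pmk-1 KCl, and 9.80, 12.3 and 9.04 CPM in wild-type NaCl against 14.2, 18.3 and 14.4 CPM in wild-type KCl. The salts were separate in each genotype and the log2 values almost equal, -0.60 ± 0.20 in pmk-1 and -0.59 ± 0.20 in wild type. For gstk-2 they were -0.84 ± 0.29 and -0.62 ± 0.31.

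**Figure D2:**
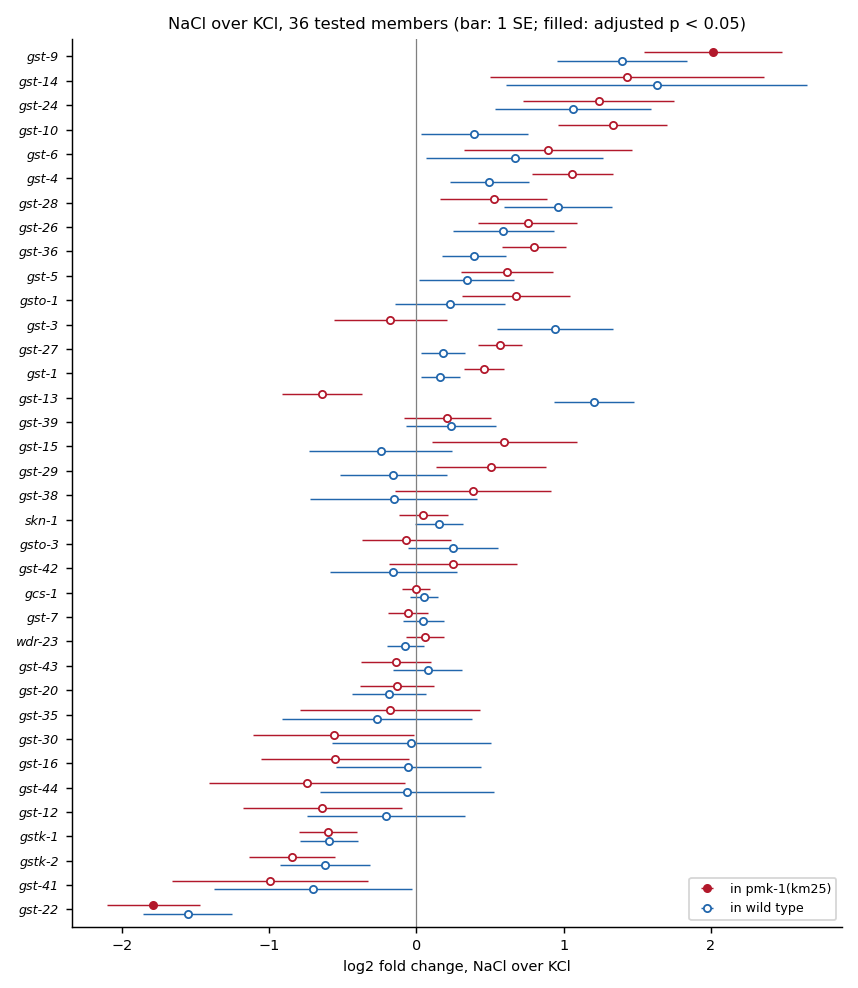
Log2 fold change of NaCl over KCl for the 36 tested members in pmk-1(km25) and in wild type, from 1 fit over 12 libraries; bars are 1 SE and filled points have an edgeR adjusted p under 0.05. Only gst-9 and gst-22 in pmk-1 are filled, and gst-13 lies on opposite sides of 0 in the 2 genotypes.

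For gst-13 the salt effect had opposite signs in the 2 genotypes. It was read at 15.6, 8.04 and 11.9 CPM in pmk-1 NaCl against 24.0, 18.2 and 13.3 CPM in pmk-1 KCl. Wild-type animals had 31.3, 35.5 and 25.6 CPM in NaCl against 12.7, 14.5 and 12.8 CPM in KCl. The wild-type NaCl libraries stood above the 9 others, and the mutant salts overlapped. The salt effect was -0.64 ± 0.27 on the log2 scale in pmk-1 and 1.20 ± 0.27 in wild type, where it did not pass in the fit over all libraries (edgeR adjusted p = 0.143) and passed with the replicate block (0.0395) and in the 6 wild-type libraries alone (1.22, 0.00703). The test of the difference between the genotypes gave -1.84 ± 0.38 with an unadjusted p of 4.77e-04, the smallest of any member, and an edgeR adjusted p of 0.155.

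No member passed that test of unequal salt effects, in which 0.0374% of all genes were called higher in pmk-1 and none lower; gst-13 was the sole member with an unadjusted p under 0.05, and DESeq2 called it (-1.87, adjusted p = 0.00134). The next members by p were gst-3 (-1.12 ± 0.55), gst-27 (0.39 ± 0.21), gst-10 (0.94 ± 0.52), gst-1 (0.30 ± 0.19) and gst-4 (0.56 ± 0.38), as log2 differences of pmk-1 minus wild type.

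**Figure D3:**
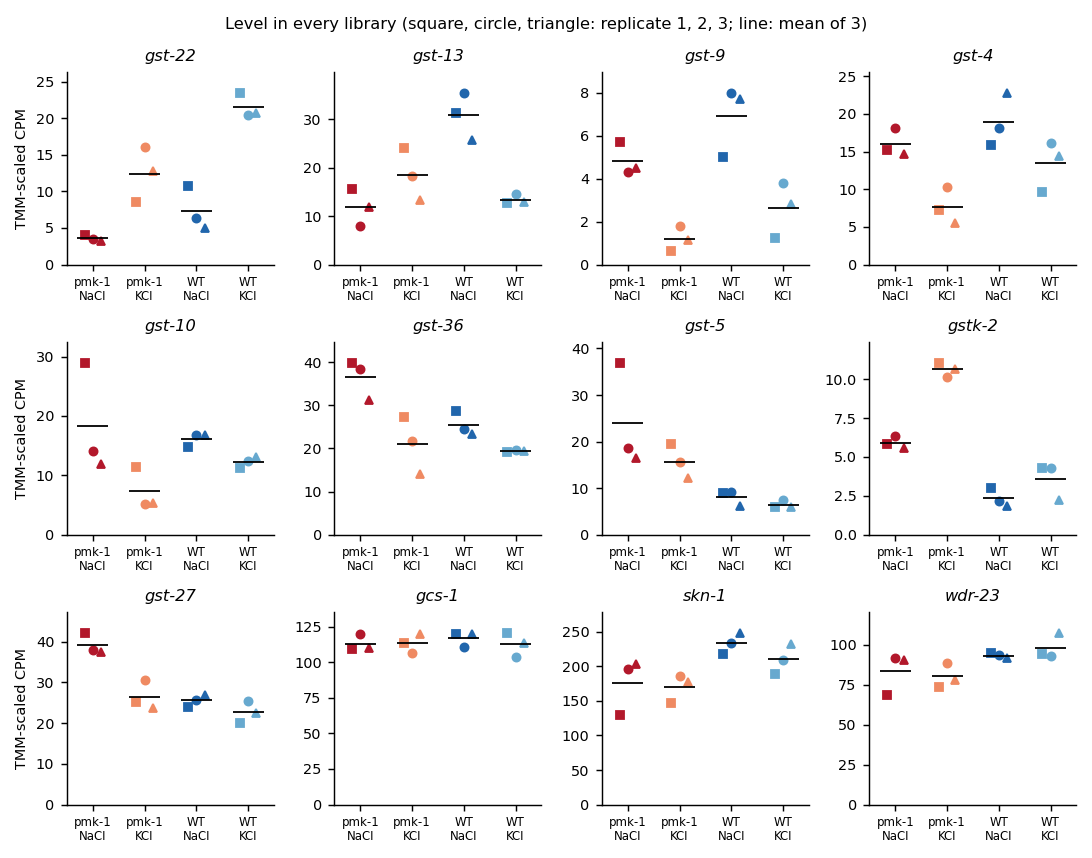
TMM-scaled CPM of 12 members in every library, with group means as lines and replicates 1, 2 and 3 as squares, circles and triangles. The groups run from pmk-1(km25) NaCl to wild-type KCl; gst-22 is lower in NaCl in each genotype, gst-13 is highest in wild-type NaCl, gst-5 and gstk-2 are higher in the mutant in each salt, and gcs-1 is level across the 4 groups.

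Which members differed between the mutant and wild type? In NaCl 3 of 36 rose in pmk-1 (gst-5, gst-27 and gstk-2) and 2 fell (gst-13 and gst-22), 13.9% of the tested members, beside 26.8% of all genes (16.7% up and 10.1% down). In KCl 2 rose (gst-5 and gstk-2) and none fell, 5.56%, beside 24.4% of all genes (15.2% up and 9.18% down). In KCl 5 members were higher and 5 lower at p under 0.05 before adjustment (27.8%, beside 38.3% of all genes), and DESeq2 called 3 higher and 2 lower (12.5%, beside 25.7%). Their median log2 change was -0.01 in NaCl and 0.12 in KCl, against 0.06 and 0.02 over all genes. The NaCl and KCl comparisons use different libraries.

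The largest rise in NaCl was that of gst-5, whose enzyme, like that of gst-10, is known to conjugate a lipid peroxidation product. It had 36.98, 18.7 and 16.5 CPM in pmk-1 NaCl against 8.91, 9.25 and 6.23 CPM in wild-type NaCl, and 19.5, 15.5 and 12.1 CPM in pmk-1 KCl against 5.85, 7.33 and 6.01 CPM in wild-type KCl. Every mutant library was above every wild-type library, and the first mutant replicate was the highest in each salt. The log2 fold change was 1.57 ± 0.32 in NaCl (edgeR adjusted p = 0.0067) and 1.29 ± 0.32 in KCl (edgeR adjusted p = 0.015; 0.0647 without wild-type KCl replicate 3). With the sperm score as a covariate its values were 0.38 in NaCl (adjusted p = 0.922) and 0.17 in KCl (0.939), and with the later embryo score 0.31 (0.845) and 0.19 (0.872). Neither score overlaps between the genotypes, so mutant genotype and the sperm and embryo content of the samples cannot be told apart. The oocyte and eggshell score does not overlap either and was not used as a covariate.

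The kappa-class gene gstk-2 had 5.82, 6.34 and 5.58 CPM in pmk-1 NaCl against 3.01, 2.18 and 1.84 CPM in wild-type NaCl, and 11.1, 10.2 and 10.7 CPM in pmk-1 KCl against 4.31, 4.29 and 2.20 CPM in wild-type KCl. Again every mutant library was above every wild-type library of either salt. Its log2 fold change was 1.34 ± 0.31 in NaCl (edgeR adjusted p = 0.0097; 0.0506 without wild-type NaCl replicate 3) and 1.56 ± 0.30 in KCl (edgeR adjusted p = 0.0053). Under the sperm covariate these became 0.50 and 0.75 and under the embryo covariate 1.00 and 1.26, none of which passed (edgeR adjusted p from 0.282 to 0.889). The other kappa-class gene, gstk-1, stood at -0.03 ± 0.20 and -0.02 ± 0.20.

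For gst-27, the third most abundant transferase per kb, the levels were 42.2, 38.03 and 37.5 CPM in pmk-1 NaCl against 24.1, 25.8 and 26.9 CPM in wild-type NaCl. The pmk-1 KCl libraries, at 25.3, 30.7 and 23.6 CPM, overlapped those of wild-type KCl at 20.0, 25.5 and 22.4 CPM. The pmk-1 NaCl libraries thus stood above the 9 others. In NaCl the log2 fold change was 0.62 ± 0.15 (edgeR adjusted p = 0.012), lost narrowly without wild-type NaCl replicate 2 (0.0519) or pmk-1 NaCl replicate 1 (0.0502). In KCl the log2 fold change was 0.23 ± 0.15.

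The run on chromosome II that holds gst-27 was looked at because gst-27 was called, so gst-27 itself adds nothing to a count of signs. With gst-27 included, 5 of the run's 6 tested genes were positive for pmk-1 over wild type in NaCl and 1 was negative. The log2 values ran from -0.06 (gst-29) to 0.76 (gst-39). In KCl again 5 were positive and 1 negative. Over all genes tested, 53.0% were positive in NaCl and 51.5% in KCl. No gene of the run but gst-27 passed. Among the others gst-39 came nearest to the threshold. It had 8.56, 6.11 and 7.04 CPM in pmk-1 NaCl against 3.23, 5.41 and 4.13 CPM in wild-type NaCl, a log2 fold change of 0.76 ± 0.30 (edgeR adjusted p = 0.078), and in KCl it was at 0.79 ± 0.30 (0.077). In the run around gst-20, 3 of 6 tested genes were positive and 3 negative in each salt.

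The falls in NaCl were those of gst-13 and gst-22, whose values by library are given above. For gst-13 the mutant NaCl libraries all lay below the wild-type NaCl libraries, with a log2 fold change of -1.38 ± 0.27 (edgeR adjusted p = 0.00597), and the call held with any 1 of the 12 libraries left out. In KCl it stood at 0.47 ± 0.27 and did not pass. For gst-22 the NaCl value was -1.02 ± 0.32 (edgeR adjusted p = 0.0334) and the KCl value -0.79 ± 0.30 (0.0732, and from 0.0439 without wild-type NaCl replicate 1 to 0.212 without another library), with mutant libraries below wild-type libraries in each salt. The NaCl call of gst-22 was lost without wild-type NaCl replicate 1 (-0.66, adjusted p = 0.116) or 2 (0.0620) or without pmk-1 NaCl replicate 1 (0.0533), 2 (0.0653) or 3 (0.0637). With the sperm and the embryo covariate the log2 values in NaCl were -2.06 and -2.54 for gst-13 (edgeR adjusted p = 0.242 and 0.0623) and -1.70 and -0.84 for gst-22 (0.48 and 0.637).

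Among the members that came next in KCl, gst-4 was lower in the mutant, with the levels given above, at -0.81 ± 0.27 (edgeR adjusted p = 0.0523; 0.0299 without wild-type KCl replicate 1, 0.0297 without pmk-1 KCl replicate 2 and up to 0.165 without another library), and in NaCl at -0.24 ± 0.27. The omega-class gene gsto-3 had 14.2, 11.2 and 14.6 CPM in pmk-1 KCl against 8.92, 9.05 and 4.11 CPM in wild-type KCl, a log2 fold change of 0.85 ± 0.31 (edgeR adjusted p = 0.062). The mutant libraries were again all above the wild-type libraries. For the 2 most abundant transferases the values were small: gst-1 was at -0.01 ± 0.13 in NaCl and -0.31 ± 0.13 in KCl (edgeR adjusted p = 0.11, and from 0.0494 without wild-type KCl replicate 3 to 0.301 without another library), and gst-7 at -0.27 ± 0.14 and -0.16 ± 0.14 (in NaCl -0.28 with the replicate block, adjusted p = 0.0483). With that block gst-36 also passed in NaCl (0.52, adjusted p = 0.0365; 0.52 ± 0.21 and 0.09 without it, and 0.0482 and 0.0461 without pmk-1 KCl replicate 1 or 3). The zeta-class genes did not pass: gst-42, which encodes the maleylacetoacetate isomerase of tyrosine breakdown, was at -0.03 ± 0.43 in NaCl and -0.44 ± 0.43 in KCl, and gst-43 at -0.11 ± 0.24 and 0.11 ± 0.24. In KCl gst-42 had 17.5, 5.27 and 5.39 CPM in pmk-1 against 12.5, 12.7 and 12.9 CPM in wild type, so that the first mutant replicate lay above the wild-type libraries and the other mutant replicates below them. Without pmk-1 KCl replicate 1 it was called lower (-1.25, edgeR adjusted p = 0.0203), as was gst-10 (-1.23, 0.0355; -0.75 ± 0.37 and 0.16 with all libraries). In NaCl gst-42 had 15.9, 7.02 and 10.6 CPM in pmk-1 against 11.5, 11.2 and 11.5 CPM in wild type.

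**Figure D4:**
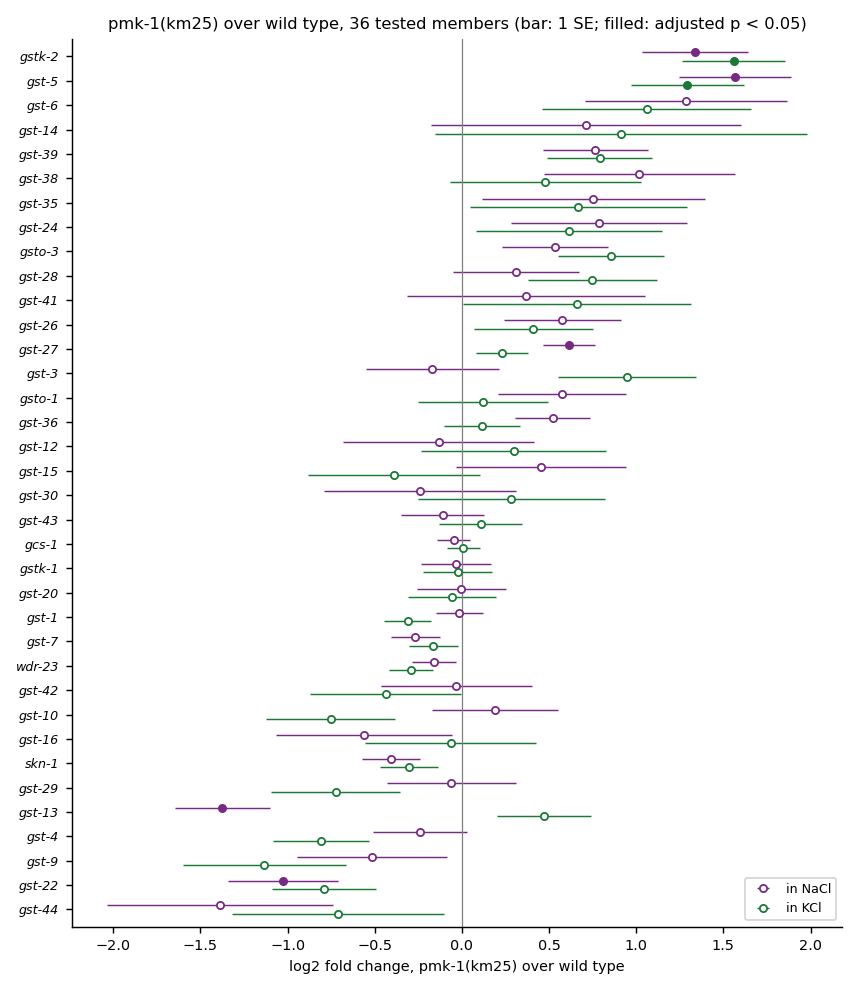
Log2 fold change of pmk-1(km25) over wild type for the 36 tested members in NaCl and in KCl; bars are 1 SE and filled points have an edgeR adjusted p under 0.05. The genes gst-5 and gstk-2 are filled on the positive side in each salt, gst-27 in NaCl alone, and gst-13 and gst-22 on the negative side in NaCl alone.

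What the data could show differed among the members. The 21 members with a mean of at least 5 CPM had standard errors from 0.09 to 0.43 on the log2 scale in the 4 comparisons of salts and genotypes. The 19 members under 5 CPM were measured far less precisely, and the 15 of them that were tested had errors from 0.36 to 1.07. Among the low members gst-24, another gene whose enzyme acts on lipid peroxidation products, was at 1.24 ± 0.51 in pmk-1 and 1.07 ± 0.53 in wild type for NaCl over KCl, and gst-14 at 1.43 ± 0.93 and 1.63 ± 1.02, and neither passed. The untested members gst-19, gst-21, gst-33 and gst-34 stayed at or below 2.90 CPM in every library. Over the 5 comparisons, 6 members were called in 9 calls, and 30 tested members were called in none.

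Genes that supply glutathione, recycle it or export its conjugates were taken from lists of known pathway genes. None of these genes passed for salt in wild type. The counts of calls below stand beside 2.71% of all genes called for salt in pmk-1. Between the genotypes 26.8% of all genes were called in NaCl and 24.4% in KCl. Of 6 genes of glutathione and cysteine supply beside gcs-1, none passed for salt in the mutant, 2 rose and 1 fell in NaCl in pmk-1 over wild type, and 1 fell in KCl. The fall was that of cbs-1, a cystathionine beta-synthase of the route that makes cysteine from methionine, at 19.8 CPM in pmk-1 NaCl against 37.6 CPM in wild-type NaCl (-0.92 ± 0.20, edgeR adjusted p = 0.00829) and 19.6 CPM in pmk-1 KCl against 32.9 CPM in wild-type KCl (-0.75 ± 0.20, edgeR adjusted p = 0.0204). Its paralog cbs-2 (3.54 ± 0.93, edgeR adjusted p = 0.0177) and cth-2, a cystathionine gamma-lyase of the same route (1.00 ± 0.26, 0.0181), rose in NaCl. The KCl call of cbs-1 was lost without wild-type KCl replicate 2 or 3 or pmk-1 KCl replicate 1 or 2 (edgeR adjusted p from 0.0567 to 0.0998). The call of cbs-2 was lost without wild-type NaCl replicate 3 or pmk-1 NaCl replicate 1 (0.0752 and 0.103) and that of cth-2 without wild-type NaCl replicate 2 or 3 or pmk-1 NaCl replicate 1 (0.0662 to 0.0734). Without pmk-1 NaCl replicate 1 their log2 values were 1.98 for cbs-2 and 0.54 for cth-2.

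Of the 20 genes of glutathione and thiol redox, such as thioredoxins, peroxidases and the glutathione reductase gene gsr-1, 18 were tested. None passed for salt in either genotype or between genotypes in NaCl, and in KCl 2 rose and 1 fell, where 24.4% of all genes passed. The rises were of the glutathione peroxidase gene gpx-6 (1.38 ± 0.38, edgeR adjusted p = 0.0218) and the mitochondrial thioredoxin gene trx-2 (0.47 ± 0.13, 0.0242), and the fall that of gsr-1 (-0.41 ± 0.13, 0.0478). Leaving out single libraries ended these calls in 5, 3 and 10 of 12 cases.

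Among 8 tested mrp genes, ABC transporters of the class that exports glutathione conjugates, mrp-2 had the smallest p of any gene in these lists. It was read at 73.4, 55.9 and 45.6 CPM in pmk-1 NaCl against 15.6, 18.1 and 12.3 CPM in pmk-1 KCl, while wild type had 21.3, 23.2 and 18.96 CPM in NaCl against 13.6, 13.9 and 13.2 CPM in KCl. The NaCl libraries were higher in each genotype, most so in the mutant. The salt effect was 1.93 ± 0.20 on the log2 scale in pmk-1 (edgeR adjusted p = 5.19e-04) and 0.64 ± 0.20 in wild type (0.502), and the difference between them, 1.29 ± 0.28, did not pass (unadjusted p = 6.75e-04, edgeR adjusted p = 0.184). In NaCl it was higher in pmk-1 than in wild type by 1.46 ± 0.20 (edgeR adjusted p = 0.00186; 0.99 and 0.628 with the sperm covariate). No library left out ended either call of mrp-2. The transporter gene mrp-3 rose in pmk-1 in NaCl (1.21 ± 0.30, 0.014) and KCl (0.96 ± 0.30, 0.0381), and other mrp genes did not pass. Of all genes, 16.7% rose in pmk-1 in NaCl and 15.2% in KCl. The NaCl call of mrp-3 was lost in 2 of 12 cases of a library left out (0.73, edgeR adjusted p = 0.0593 without pmk-1 NaCl replicate 1 and 0.0594 without wild-type NaCl replicate 2). Its KCl call was lost in 7 of 12, among them pmk-1 KCl replicate 1 (0.69, edgeR adjusted p = 0.143).

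Of 19 tested genes that act on SKN-1, 1 rose with NaCl in the mutant, 3 rose and 1 fell in pmk-1 in NaCl, and 3 rose and 3 fell in KCl. Over all genes 2.71%, 26.8% and 24.4% were called in these 3 comparisons, so calls between the genotypes were common among genes of any kind. The salt response was that of tir-1, which encodes the adaptor at the head of the PMK-1 kinase cascade. It had 74.3, 69.7 and 49.3 CPM in pmk-1 NaCl against 22.4, 20.4 and 15.3 CPM in pmk-1 KCl (log2 fold change 1.73 ± 0.24, edgeR adjusted p = 0.00337, called with any 1 library left out). In wild type it had 32.5, 43.7 and 49.95 CPM in NaCl against 28.5, 41.5 and 46.1 CPM in KCl (0.12 ± 0.24), so that the mutant libraries of KCl lay below all others and those of NaCl overlapped wild type in the third replicates. The difference of the salt effects was 1.61 ± 0.34 (unadjusted p = 4.89e-04, edgeR adjusted p = 0.156). The genes that rose in pmk-1 in both salts were the kinase genes sgk-1 and akt-2 of insulin signalling and elt-3, a GATA factor of the epidermis, the last by 1.32 ± 0.21 in NaCl (edgeR adjusted p = 0.00351) and 0.63 ± 0.21 in KCl (0.0445, lost in 7 of 12 cases of a library left out). The calls of sgk-1 were lost in 8 such cases in NaCl (edgeR adjusted p up to 0.146) and in 7 in KCl, where its log2 value of 0.75 came to 0.46 without 1 library, pmk-1 KCl replicate 1. Those of akt-2 were lost in 4 and 3. The gene for the sugar transferase OGT-1 fell in both salts, and tir-1 (-0.999 ± 0.24, edgeR adjusted p = 0.0128; 0.0695 without wild-type KCl replicate 3) and pmk-1 fell in KCl. The KCl calls of ogt-1 and pmk-1 were lost in 6 and 7 of 12 cases (edgeR adjusted p up to 0.123 and 0.128).

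None of 13 tested genes of the route that makes SKN-1A, the form of SKN-1 that responds to failing proteasomes, or of the proteasome subunits it controls passed in any comparison. Among 6 other stress-induced targets of SKN-1, the list median was 0.63 for salt in wild type and 0.22 in pmk-1 with no call, beside -0.01 for all genes. Between the genotypes it was -0.79 in NaCl and -0.38 in KCl (all genes 0.06 and 0.02), with 3 genes called lower in NaCl, nit-1 (-0.78 ± 0.20, edgeR adjusted p = 0.0164), dhs-8 (-1.77 ± 0.50, 0.0241) and F56D5.3, and F56D5.3 alone in KCl. Over all genes 10.1% were called lower in NaCl and 9.18% in KCl. F56D5.3 had 1.83, 1.47 and 0.73 CPM in pmk-1 NaCl against 7.12, 9.25 and 8.16 CPM in wild-type NaCl (-2.59 ± 0.46, edgeR adjusted p = 0.0046), and 1.14, 0.75 and 0.41 CPM in pmk-1 KCl against 1.85, 4.57 and 2.91 CPM in wild-type KCl (-2.0 ± 0.48, 0.0123; 0.0553 without wild-type KCl replicate 2). Its mutant libraries were below its wild-type libraries in each salt. The call of nit-1 was lost without wild-type NaCl replicate 2 (0.0785) and that of dhs-8 without wild-type NaCl replicate 2 or 3 or pmk-1 NaCl replicate 1 (0.0633 to 0.0691). None of the genotype calls in these lists passed with the sperm score as a covariate (edgeR adjusted p from 0.547 to 0.999).

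**Figure D5:**
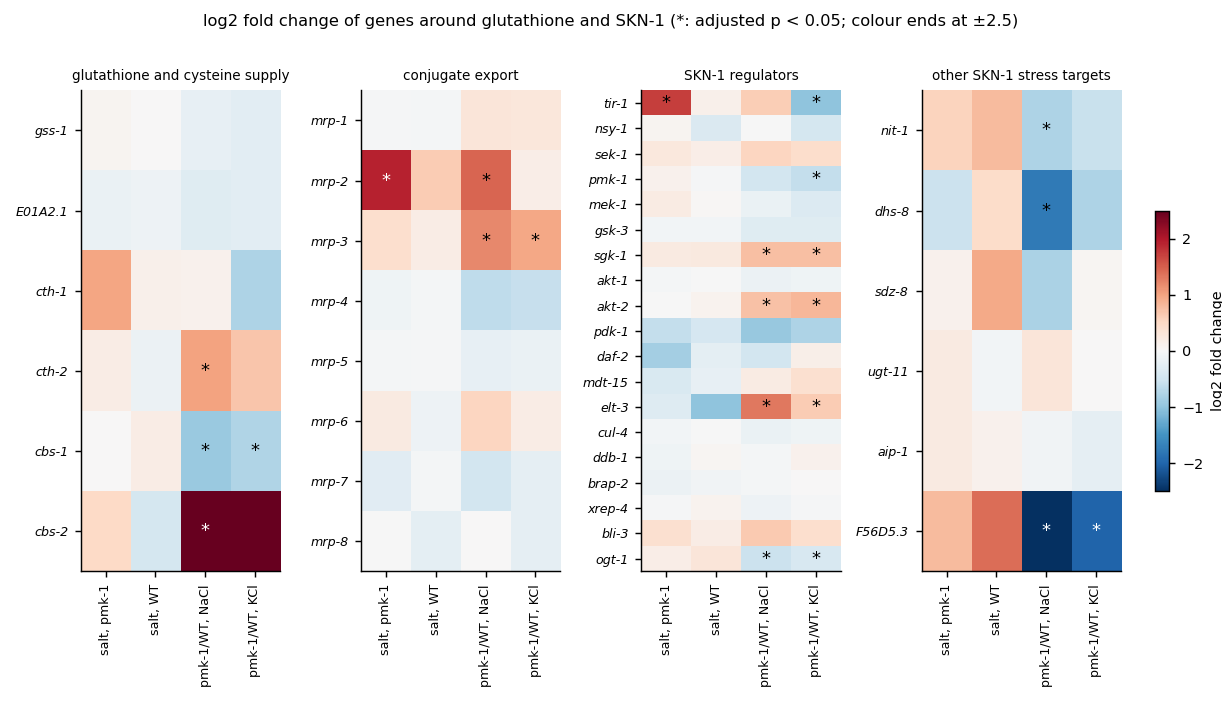
Log2 fold changes of 39 genes around glutathione and SKN-1 in 4 comparisons (columns: NaCl over KCl in pmk-1(km25) and in wild type, pmk-1(km25) over wild type in NaCl and in KCl); stars mark an edgeR adjusted p under 0.05 and the colour scale ends at 2.5 in either direction. The salt columns hold stars for mrp-2 and tir-1 in pmk-1 only, and the column of wild-type salt holds none.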

How the data were processed

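Total RNA of whole animals was sequenced as paired 150-base reads, per the labels' protocols. The deposited table holds expected counts per gene and library, whole numbers as deposited, so none was rounded. Programs listed in the submitters' processing notes are DESeq2 1.40.2, RSEM 1.3.3, STAR 2.7.1a and R 4.3.1. What each did, the genome build, the annotation and the use of strand were not given in the sources used here. Exon lengths, chromosomes and neighbours were taken by gene identifier from the Ensembl release 115 annotation of WBcel235, which matched 46817 of 46904 genes, and no coordinates are given for that reason.

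Genes kept by filterByExpr (13353) were scaled by TMM and fitted with the quasi-likelihood model of edgeR 4.0.16 in R 4.3.3, with 1 mean per group, no covariate and all 12 libraries in 1 fit. Calls used a Benjamini-Hochberg adjusted p under 0.05 over all genes tested. The standard error after ± is the size of the log2 fold change divided by the square root of F, and 95% intervals are 2.19 standard errors wide on each side. Adjusted p-values without a tool named are from this model, and with a covariate, block or library left out from the same model so changed. The script was tested on counts simulated with known changes between NaCl and KCl in wild type. It called 38 of 100 2-fold changes, 61 of 100 4-fold changes and 6 of 13153 unchanged genes. A true change of such a size could thus fail to pass. Replicate pairs of a group differed by 4.88 to 69.8 in chi-square per degree of freedom, so no library was a copy of another. Intervals of counts were not used.

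Same-numbered libraries deviated together from their group means, with correlations across genes for numbers 1, 2 and 3 of 0.634, 0.205 and 0.521 between salts in wild type, 0.748, 0.427 and 0.56 between salts in pmk-1, and 0.412, 0.228 and 0.259 between genotypes in NaCl. By the rule that all exceed 0.1, the numbers were taken as pairs in these comparisons, and values with the replicate number as a block are printed where they change a call. Between genotypes in KCl the same-number correlations were 0.434, 0.075 and 0.329, so that number 2 alone fell short of the rule. That rule does not look at libraries of different numbers. For number 2 the highest correlation with a differently numbered library was 0.241 and 0.54 between salts in wild type and pmk-1. Between genotypes it was 0.229 in NaCl and 0.284 in KCl. Each is at least as high as its same-number value, so a pairing of the second replicates was not shown. For number 1 these values were all below 0.

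The members, gene lists and tests were chosen with earlier results of these data known. In each comparison the named members were those called, or the 6 of smallest p where fewer passed, and gcs-1, skn-1, wdr-23, gst-4 and the 5 of highest level per kb. Other members named, and the pathway genes named, were chosen after their values were seen. Alternatives were RLE size factors, DESeq2 1.42.0, no count filter, the block, the libraries of the comparison alone, the first replicates left out, a sperm or later embryo marker score as covariate, and each library left out in turn. Pathway genes, and members outside the naming rule that an alternative called (gst-42 and gst-10 in KCl among them), were run through them as an addition made after seeing the data.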

Additional observations from a re-analysis of the deposited data

Results flagged for a closer look

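The salt effect of gst-13 stood out because it ran in opposite directions in the 2 genotypes in every same-numbered pair of libraries. On the log2 scale the difference of the salt effects, pmk-1 minus wild type, was -1.84 ± 0.38 (n = 3 libraries in each of 4 groups). It did not pass in edgeR over all libraries (adjusted p = 0.155, and 0.0594 to 0.439 with 1 library left out). It passed in DESeq2 (-1.87, adjusted p = 0.00134), without the first replicates (-1.89, edgeR adjusted p = 0.0335) and with the later embryo score (-1.97, edgeR adjusted p = 0.0216) or the sperm score (-1.87, edgeR adjusted p = 0.0495) as covariate.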

How the results depend on the processing

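Counts of members called are given here as higher and lower in NaCl, or in pmk-1. RLE size factors left 0 members higher for salt in pmk-1, where 2.31% of all genes were called either way. DESeq2 called 1 higher and 1 lower for salt in wild type, 6 higher for salt in pmk-1, 2 lower between genotypes in KCl and 1 lower (gst-13) for the difference of salt effects. With the replicate block there were 1 higher and 1 lower for salt in wild type, 4 higher for salt in pmk-1, 4 lower between genotypes in NaCl and 2 lower in KCl. Calls over all genes rose with the block as well, to 131, 679, 5344 and 4818, against 25, 362, 3581 and 3257 without it. Between genotypes in KCl the same-number correlation was 0.434 and 0.329 for numbers 1 and 3, and number 2 alone, at 0.075, failed the rule for pairs. There the block brought in gst-4 (adjusted p = 0.0225), gsto-3 (0.0232) and gst-22 (0.0496). The block moved the counts of calls in no other way by over 1.5 times. With the libraries of a comparison alone, 1 was higher and 1 lower for salt in wild type, 0 and 0 for salt in pmk-1, and 1 lower between genotypes in NaCl. Over all genes 1.32%, 0.382% and 20.7% were called in these comparisons. Without the first replicates, 1 was higher and 1 lower for salt in wild type, 3 higher for salt in pmk-1, 4 lower between genotypes in NaCl, 4 lower in KCl and 1 lower for the difference of salt effects. The 4 lower in NaCl were gst-9 (-0.87, edgeR adjusted p = 0.0455), gst-13, gst-22 and skn-1. Those in KCl were gst-4, gst-9 (-1.13, 0.0314), gst-10 (-1.25, 8.03e-04) and gst-42 (-1.23, 0.0022). With all libraries gst-9 stood at -0.52 ± 0.43 in NaCl (0.374) and -1.13 ± 0.47 in KCl (0.0994; 0.0377 without wild-type KCl replicate 1). With the later embryo score, 1 was higher and 1 lower for salt in wild type, 0 and 0 differed between genotypes in NaCl, 0 were higher and 1 lower (gst-42) in KCl and 1 was lower for the difference of salt effects. With the sperm score, 1 was lower for salt in wild type, 3 were higher for salt in pmk-1, 0 and 0 differed between genotypes in NaCl, 0 were higher in KCl and 1 was lower for the difference of salt effects. Over all genes, calls between genotypes came to 17 in NaCl and 33 in KCl with the sperm score and to 17 and 114 with the embryo score, so the loss of calls was not one of the members alone. For salt, the sperm score gave calls for 0.734% of all genes in wild type and 4.51% in pmk-1, and the embryo score for 0.667% and 3.54%. For the difference of salt effects the shares were 0.33% with the sperm score and 0.352% with the embryo score. DESeq2 called 0.915%, 4.76%, 29.8% and 25.7% of all genes, and without the first replicates 1.02%, 8.11%, 33% and 34.7% were called, for salt in wild type, salt in pmk-1 and the genotypes in NaCl and KCl. Without the count filter no count of members changed by over 1.5 times.

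Leaving out each library in turn gave 0 to 0 members higher and 0 to 1 lower for salt in wild type. For salt in pmk-1 it gave 0 to 2 higher and 0 to 1 lower. Between genotypes in NaCl it gave 2 to 4 higher and 1 to 2 lower. Between genotypes in KCl it gave 1 to 3 higher and 0 to 2 lower. For the difference of salt effects it gave 0 to 0 each way. Calls over all genes moved as well, from 0 to 78 for salt in wild type and from 112 to 550 for salt in pmk-1. Between genotypes they ran from 1701 to 4327 in NaCl and from 1390 to 4473 in KCl. For the difference of salt effects they ran from 2 to 20. With all libraries these calls were 25, 362, 3581, 3257 and 5, in the same order.

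Called values that changed sign were all of pathway genes between genotypes, and the cause was not tested. With the later embryo score these were, in NaCl, cth-2 (-0.30), cbs-2 (-0.072), mrp-3 (-0.23) and dhs-8 (0.47), and in KCl, gsr-1 (0.12) and mrp-3 (-0.29). With the sperm score they were, in NaCl, cth-2 (-0.23), cbs-2 (-1.25) and akt-2 (-0.47), and in KCl, gsr-1 (0.048), akt-2 (-0.31) and elt-3 (-0.18). Among the other single-gene values run through the alternatives, 1395 kept direction and side of the threshold, 168 no longer passed, 49 newly passed, and 44 changed sign without being called under either setting. Members under 5 CPM had errors of 0.36 to 1.07 on the log2 scale.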
